A study of Mus musculus with 6 samples.

Results

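The genes described here are 45 mouse genes of DNA replication and S phase, chosen by name from their known roles. They form 9 groups, from origin licensing to the packaging of new DNA. Of the 45 genes, 44 were measured by a probe set that carries their symbol alone, out of 18193 genes measured in all, and Chaf1a was not analysed here. RNA came from 344SQ, a line of mouse lung adenocarcinoma cells grown as a mass population from a subcutaneous site of mouse #344, whose genotype was p53R172H∆g/+ K-rasLA1/+. The miR-200 cells had been stably transduced with a lentivirus carrying the miR-200b-200a-429 cluster, and the control cells with the control vector. Both were kept as pools of GFP-positive cells selected in puromycin, so both carry the same tumor alleles, a lentivirus and the selection. Each kind of cell gave 3 arrays, called miR-200 A, B and C and control A, B and C, with 1 Affymetrix array per culture. The labels do not say whether the 3 cultures of a kind came from separate transductions, so p-values cover no more than the spread among these cultures of one line.

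Before a cell divides it must copy its DNA once. In G1 the origin recognition complex, Cdc6 and Cdt1 load the Mcm2-7 helicase on origins. Cyclin-dependent kinases, Cdc7 kinase, Cdc45 and the GINS complex then switch it on, and polymerases held by the Pcna clamp copy both strands. Many of these genes are transcribed under E2F factors, which the retinoblastoma protein holds back until cyclin D and cyclin E kinases phosphorylate it, so their RNA is abundant in cycling cells and scarce in resting ones. The miR-200 family is known for repressing the transcription factors Zeb1 and Zeb2 and so keeping cells epithelial. The mature microRNAs of the transduced cluster are shown because they are the perturbation in this study, with bases 2 to 8, the seed that pairs with target messages, in capitals. Mature sequences are those of RefSeq for GRCm38.p6, and all 3 lie on the minus strand of chromosome 4, at chr4:156055685-156055706 for miR-200b, chr4:156054911-156054932 for miR-200a and chr4:156053916-156053937 for miR-429. The first and the last of the lines below share a seed, and miR-200a has another.
mmu-miR-200b-3p: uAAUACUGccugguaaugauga
mmu-miR-200a-3p: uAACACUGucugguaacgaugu
mmu-miR-429-3p: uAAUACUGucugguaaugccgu

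All values are log2 signals after quantile normalization, and a gene is read from the brightest of its probe sets. Signals of different genes are not compared, because probe sets differ in brightness for the same amount of RNA. As a gauge of background, the highest value of a control probe set for a bacterial trp gene was 5.28. The median over all genes lay between 7.38 and 7.49 on the 6 arrays. Of 5 housekeeping genes measured, Actb and Rplp0 stayed between 13.63 and 13.84, but the others moved. B2m read 12.61, 11.85 and 11.64 on miR-200 A, B and C, against 11.92, 12.64 and 11.95 on control A, B and C. Tbp was higher in miR-200 cells without overlap (log2 change 0.30, limma adjusted p = 0.388), as 11.4% of all genes were. Hprt was lower without overlap (-0.23, limma adjusted p = 0.47), as 12.1% were. Of the 6 epithelial markers, Cdh1, Krt7, Krt8 and Krt18 read between 13.01 and 13.94 on every array and Epcam between 9.13 and 9.93. Cldn4, a tight junction claudin, read 10.33, 8.78 and 8.60 on the miR-200 arrays, against 4.13, 3.33 and 3.10 on the control arrays, which lie under the gauge (limma adjusted p = 0.0217). That call was lost without any 1 of miR-200 B and C and control A, B and C (adjusted p of 0.0891 to 0.112) and without both miR-200 A and control B (0.0756). Of the lung lineage markers, Nkx2-1 read between 6.55 and 7.36 and Napsa between 7.11 and 7.58, above the gauge. Sftpa1 lay near the gauge, between 4.33 and 5.55, and Sftpc under it, between 3.95 and 4.85. Napsa was higher in miR-200 cells without overlap (log2 change 0.23, limma adjusted p = 0.524). Sftpb, a surfactant protein of alveolar type II cells, read 6.57, 6.55 and 6.51 on the miR-200 arrays and 12.38, 13.01 and 12.34 on the control arrays (log2 change -6.03 ± 0.22 SE, limma adjusted p = 0.00249).

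1 array of each group stood apart. The median log2 signal of the 44 replication genes was 8.93, 10.33 and 10.44 on miR-200 A, B and C, and 10.15, 8.83 and 10.08 on control A, B and C. The replication genes were thus low on miR-200 A and on control B, and close together on the remaining arrays of both groups. Each comparison below is therefore given with all 6 arrays and without those 2. Those 2 were picked because these same genes read low on them, which itself narrows the spread within groups. The median standard error of the 44 changes was 0.68 with all arrays and 0.12 without both. Errors, intervals and p-values without both thus understate the spread among cultures, and are given as descriptions. In RNA of whole cultures, fewer cells in S phase and less RNA per cell cannot be told apart.

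No replication gene passed the test between miR-200 cells and control cells, among cultures that varied widely within each group. With all 6 arrays, 0 of the 44 passed an adjusted p of 0.05 in limma, and 0 had an unadjusted p under 0.05. Over all genes 0.945% passed the adjusted threshold, 0.275% higher and 0.671% lower, and 14.8% had an unadjusted p under 0.05. The log2 changes, miR-200 minus control, ran between -0.27 for Rrm2 and 0.89 for Mcm10, with 33 above 0 and 11 below where 50.2% of all genes lay above, and their median was 0.15 beside 0.0014 over all genes. The standard errors of the 44 changes had a median of 0.68, against 0.22 over all genes. The smallest adjusted p was 0.364, for Orc2. Orc2, a subunit of the origin recognition complex, was the sole member whose groups did not overlap: 9.79, 9.84 and 9.90 on the miR-200 arrays, against 9.23, 9.72 and 9.37 on the control arrays. Over all genes, 11.4% lay higher without overlap and 12.1% lower. The median change of the members turned on single arrays. It was 0.76 without miR-200 A, -0.12 without miR-200 B, -0.16 without miR-200 C, 0.40 without control A, -0.33 without control B and 0.43 without control C.

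Without miR-200 A and control B, most replication genes read somewhat higher in miR-200 cells, and still none passed the adjusted threshold in limma. Of the 44 changes 39 lay above 0, where 49.8% of all genes did, and their median was 0.19 against 0 over all genes. At an unadjusted p under 0.05, 10 members were higher and 0 lower, beside 9.56% and 12.8% of all genes (22.4% in either direction). The values of 28 members were higher without overlap, and those of 1, Rfc4, lower, beside 28.5% and 29.1% of all genes. The adjusted threshold was passed by 0.319% of all genes in this fit of 2 arrays against 2. The smallest adjusted p of a member was 0.0938, for Orc6. The changes ran between -0.16 for Rfc4 and 1.0 for Mcm10.

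**Figure D1:**
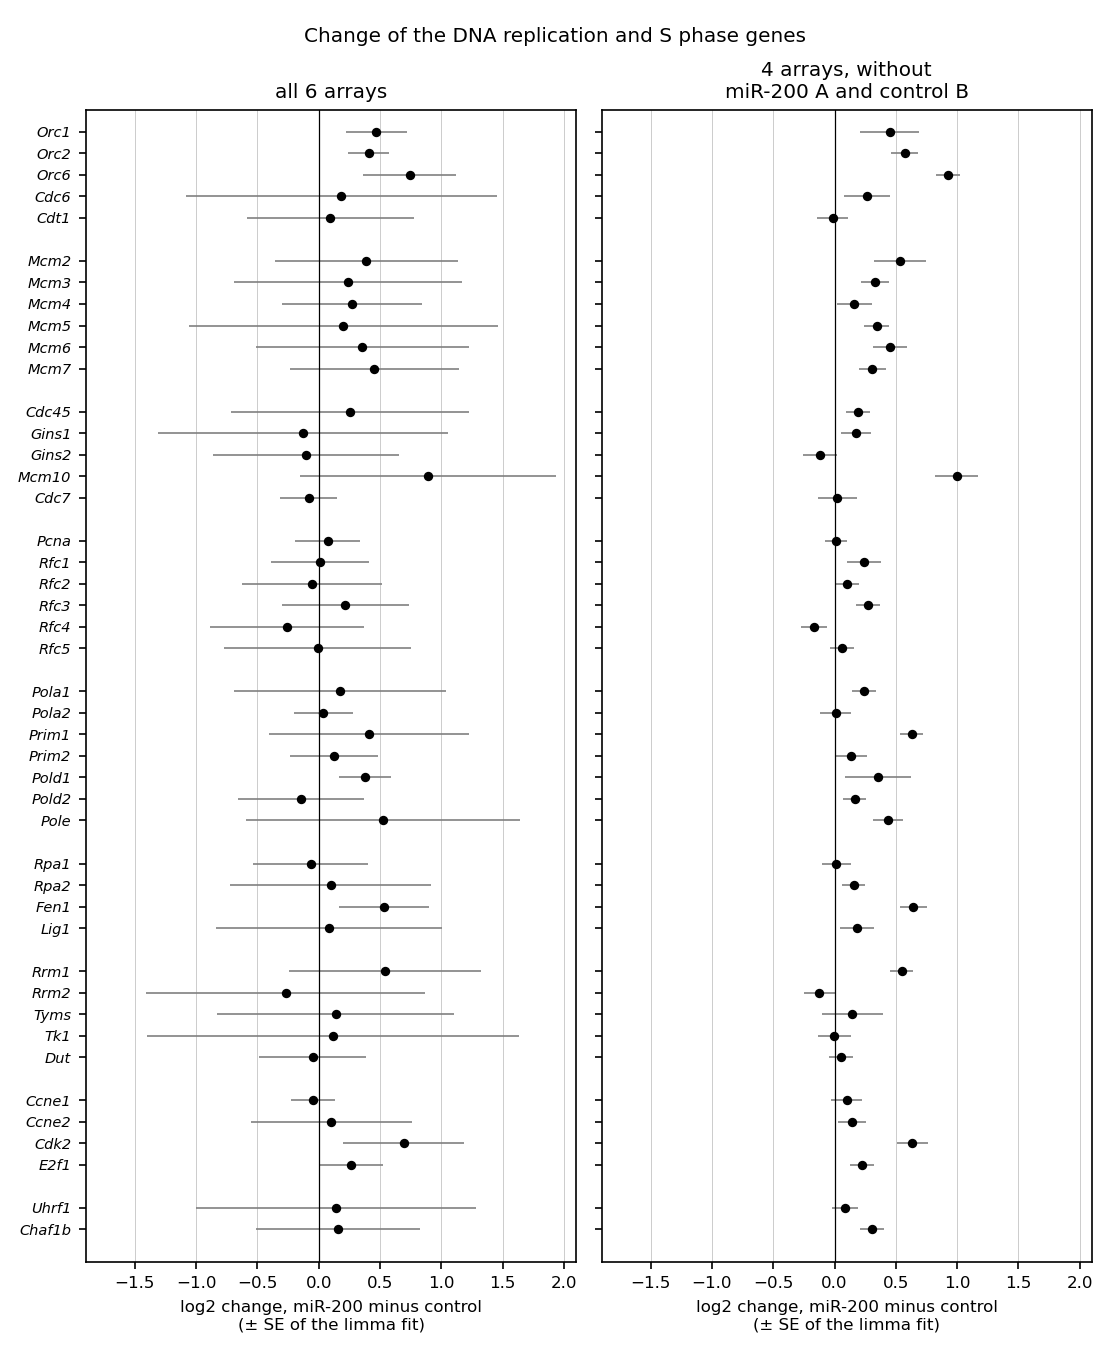
Log2 change (miR-200 minus control, horizontal axis) of each of the 44 replication genes, grouped by role, with bars of 1 standard error of the limma fit. The left panel uses all 6 arrays, where bars are wide and most cross 0; the right panel leaves out miR-200 A and control B, where 39 of 44 changes lie above 0 and Mcm10 and Orc6 lie farthest to the right.

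Licensing begins with the origin recognition complex. Orc6, its smallest subunit, read 9.50, 10.63 and 10.63 on miR-200 A, B and C, against 9.65, 9.13 and 9.76 on control A, B and C. The groups overlapped through miR-200 A, and the change was 0.74 ± 0.38 (adjusted p = 0.45). Without both low arrays it was 0.93 ± 0.10, with a 95% interval between 0.61 and 1.24. Cdt1, which with Cdc6 brings the Mcm ring to the origin, read 10.55, 11.95 and 12.16 on the miR-200 arrays, against 12.05, 10.23 and 12.09 on the control arrays. Its change was 0.09 ± 0.68 with all arrays and -0.02 ± 0.12 without both (interval -0.40 to 0.37). All 5 licensing genes had a change above 0 with all arrays, and their median was 0.41.

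The Mcm2-7 ring is the motor of the replicative helicase, and its 6 subunits were low on the same arrays. Mcm5 read 8.81, 12.11 and 12.22 on the miR-200 arrays, against 11.84, 8.90 and 11.80 on the control arrays. Mcm3 read 8.65, 11.02 and 11.19 against 10.75, 8.61 and 10.80 in control cells. Mcm2 read 9.18, 10.97 and 11.44 against 10.71, 9.08 and 10.64 in control cells. In each of these subunits 1 array of either group was low, so that the groups overlapped widely. Mcm6 read 9.41, 11.57 and 11.84 on the miR-200 arrays, against 11.23, 9.25 and 11.27 on the control arrays. Mcm7 read 10.88, 12.27 and 12.42 against 12.03, 10.13 and 12.05 in control cells, and Mcm4 read 10.83, 12.09 and 12.03 against 11.76, 10.34 and 12.03. The 6 changes lay between 0.20 for Mcm5 and 0.45 for Mcm7, with standard errors of 0.57 to 1.26 and adjusted p of 0.817 to 0.967. Without both low arrays they lay between 0.16 for Mcm4 and 0.53 for Mcm2, with standard errors of 0.10 to 0.21. Of the 6 subunits, 5 then lay higher in miR-200 cells without overlap, as 28.5% of all genes did, Mcm4 being the exception. None of the 6 passed the adjusted threshold in limma, and the smallest adjusted p was 0.219, for Mcm5. At an unadjusted p under 0.05, 2 were higher, beside 9.56% of all genes (22.4% in either direction).

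Helicase activation joins Cdc45 and GINS to the ring, and Mcm10 triggers unwinding. Mcm10 read 6.89, 9.48 and 9.78 on the miR-200 arrays, against 8.74, 6.21 and 8.52 on the control arrays. Its change was 0.89 ± 1.04 (adjusted p = 0.753), and without both low arrays 1.0 ± 0.17 (adjusted p = 0.134), with both remaining miR-200 cultures above both remaining control cultures. Its other 2 probe sets are dim, with means of 5.66 and 4.52, and gave changes of -0.47 and -0.39, so that the mean over its 3 probe sets changed by 0.011. Without control B the change of the brightest was 0.084, and without miR-200 A it was 1.81. Gins1 and Gins2 are subunits of GINS. Gins1 read 6.91, 10.37 and 10.19 on the miR-200 arrays, against 10.17, 7.66 and 10.05 on the control arrays, and Gins2 read 8.14, 10.11 and 9.84 against 10.09, 8.21 and 10.10. Again the low values were those of miR-200 A and control B. The change of Gins1 was -0.13 ± 1.18 with all arrays and 0.18 ± 0.12 without both, and that of Gins2 was -0.10 ± 0.76 and -0.12 ± 0.14.

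At the fork, Pcna is the ring that tethers polymerases to DNA, and the Rfc complex loads it. Pcna read 12.55, 13.09 and 13.06 on the miR-200 arrays, against 13.07, 12.37 and 13.05 on the control arrays, a narrow span for these genes. Its change was 0.07 ± 0.27, and 0.01 ± 0.09 without both low arrays, with an interval between -0.27 and 0.30. Rfc4, a small subunit of the loader, read 9.01, 10.77 and 10.63 on the miR-200 arrays, against 10.85, 9.46 and 10.88 on the control arrays. Its change was -0.26 ± 0.63, and -0.16 ± 0.11 without both. Prim1, the catalytic subunit of primase, which lays down the RNA primers, read 9.40, 11.70 and 11.75 on the miR-200 arrays, against 11.10, 9.43 and 11.09 on the control arrays. Without both low arrays its change was 0.63 ± 0.09 (adjusted p = 0.118), against 0.41 ± 0.82 with all arrays. Pold2, an accessory subunit of polymerase delta, read 9.34, 10.95 and 10.98 on the miR-200 arrays, against 10.82, 10.11 and 10.77 on the control arrays. Its change was -0.15 ± 0.51, and 0.17 ± 0.09 without both.

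Single-stranded DNA at the fork is covered by replication protein A, and Fen1 trims the flaps of Okazaki fragments. Rpa1, the large subunit of that protein, read 10.81, 11.97 and 12.15 on the miR-200 arrays, against 12.04, 11.04 and 12.05 on the control arrays. Its change was -0.07 ± 0.47, and 0.01 ± 0.12 without both low arrays. Fen1 read 10.16, 11.10 and 11.25 on the miR-200 arrays, against 10.50, 9.84 and 10.56 on the control arrays, so that only miR-200 A fell among the control values. Its change was 0.53 ± 0.37 (adjusted p = 0.58), and 0.64 ± 0.11 without both (adjusted p = 0.133).

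Nucleotide supply rests on ribonucleotide reductase, whose large subunit is Rrm1 and whose small, S phase subunit is Rrm2. With all 6 arrays the groups overlapped for both subunits. Rrm1 read 10.19, 12.13 and 12.15 on the miR-200 arrays, against 11.55, 9.66 and 11.63 on the control arrays. Rrm2 read 10.26, 13.22 and 13.40 on the miR-200 arrays, against 13.37, 10.82 and 13.51 on the control arrays. Rrm1 was thus higher in miR-200 B and C than in any control culture, whereas Rrm2 in miR-200 B and C fell within the control range. Without both low arrays the change of Rrm1 was 0.55 ± 0.10 (interval 0.25 to 0.84, adjusted p = 0.134) and that of Rrm2 was -0.13 ± 0.13 (interval -0.52 to 0.27, adjusted p = 0.62). With all arrays the changes were 0.54 ± 0.78 and -0.27 ± 1.14. The difference between the changes of the 2 subunits was not tested. The probe set of Tyms, thymidylate synthase, was near background, at 3.78 on miR-200 A and 3.66 on control B, and its change is not read further.

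Among the regulators of S phase entry, Cdk2 with its cyclin E partners, Ccne1 and Ccne2, fires origins, and E2f1 activates many replication genes. Cdk2 read 9.06, 10.10 and 10.22 on the miR-200 arrays, against 9.44, 8.25 and 9.62 on the control arrays. Its change was 0.69 ± 0.49 (adjusted p = 0.595), and 0.63 ± 0.12 without both low arrays (adjusted p = 0.15). E2f1 read 7.64, 8.12 and 8.20 on the miR-200 arrays, against 7.91, 7.30 and 7.96 on the control arrays, a change of 0.26 ± 0.26. Both genes were higher in miR-200 B and C than in any control culture, and lower in miR-200 A than in control A and C. Ccne1 read 9.11, 9.67 and 9.46 on the miR-200 arrays, against 9.44, 9.45 and 9.50 on the control arrays, nearly equal control values. A dimmer probe set of Ccne1, with a mean of 7.33, differed. It read 6.80, 7.55 and 7.77 on the miR-200 arrays, against 7.74, 6.67 and 7.45 on the control arrays. Ccne2 read 8.67, 10.29 and 10.39 on the miR-200 arrays, against 10.12, 8.65 and 10.27 on the control arrays. The changes were -0.05 ± 0.18 for Ccne1 and 0.10 ± 0.65 for Ccne2. Uhrf1, which guides maintenance methylation to newly copied DNA, read 8.61, 11.30 and 11.44 on the miR-200 arrays, against 11.27, 8.36 and 11.31 on the control arrays. Its change was 0.14 ± 1.14, and 0.08 ± 0.11 without both.

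**Figure D2:**
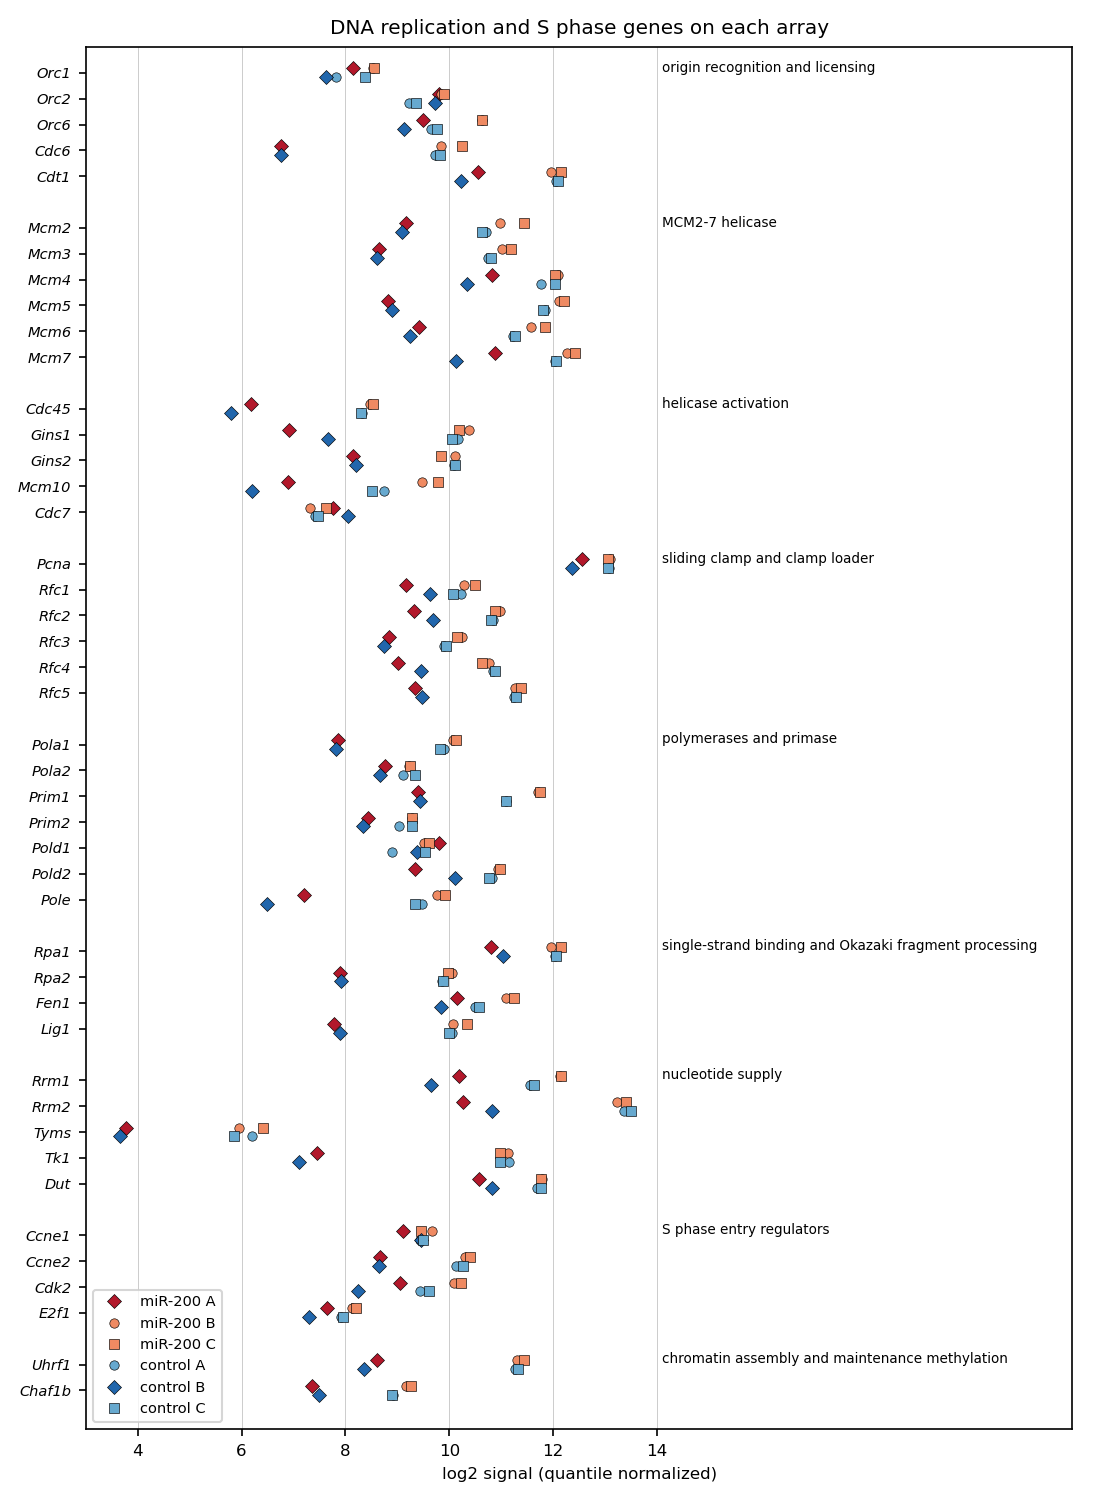
Log2 signal (horizontal axis) of the 44 replication genes, 1 row a gene, with miR-200 arrays in red shades above control arrays in blue shades. The dark diamonds, miR-200 A and control B, lie left of the remaining arrays of their groups in most rows; positions of different genes are not comparable, since each is read by its own probe set.

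The widest variation of the replication genes lay between cultures of the same kind. On miR-200 A, 42 of the 44 had the lowest value of the 3 miR-200 arrays, and on control B 40 had the lowest of the 3 control arrays. For 40 genes both held, beside 22.9% of all genes. A gap was taken as miR-200 A minus the mean of miR-200 B and C, and as control B minus the mean of control A and C, as a description with no test. Both gaps were under -1, that is a signal less than 50% of its neighbours, for 30 of the 44 genes, beside 2.67% of all genes and 2.68% of those left after the dimmest 40% of probe sets were removed. The median gap was -1.68 on miR-200 A and -1.57 on control B, against 0.012 and 0.00055 over all genes. Tk1, thymidine kinase of the salvage pathway, lay lowest: its signal was 12.2-fold below the mean of the other arrays of its group on miR-200 A and 15.5-fold below on control B.

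The ranges of the gaps overlapped between most roles, and differences between roles were not tested. On control B the Mcm2-7 gaps (-2.914 to -1.555) lay just below those of the S phase entry regulators (-1.545 to -0.022). On miR-200 A the gaps of the chromatin assembly and methylation genes (-2.765 to -1.859) lay below those of the same regulators (-1.675 to -0.461). Median gaps of the Mcm2-7 subunits were -2.16 on miR-200 A and -1.95 on control B, with both under -1 in 6 of 6. Those of the helicase activation genes were -2.32 and -2.42, and those of the nucleotide supply genes -2.39 and -2.36. The nucleotide supply medians are the gaps of Tyms itself, whose probe set was near background. Gaps of the 5 nucleotide supply genes ran between -3.61 and -1.20 on miR-200 A, and between -3.95 and -0.90 on control B. The S phase entry regulators had medians of -0.81 and -0.96, the smallest on miR-200 A, and the licensing genes -1.13 and -0.58, the smallest on control B. Mcm5 was 10.2-fold below on miR-200 A and 7.54-fold on control B, Gins1 10.3-fold and 5.47-fold, Rrm2 8.27-fold and 6.11-fold, and Uhrf1 6.80-fold and 7.62-fold. Pcna was only 1.43-fold and 1.62-fold below, and Ccne1 1.38-fold and 1.02-fold in its brightest probe set. The dimmer probe set of Ccne1 had gaps of -0.86 and -0.92. Across the 44 genes the 2 gaps had a Pearson r of 0.944 and a Spearman rho of 0.944, against an r of 0.731 across the 12806 brighter genes of that filter. These correlations are over genes read on the same 6 arrays, which are not independent replicates.

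**Figure D3:**
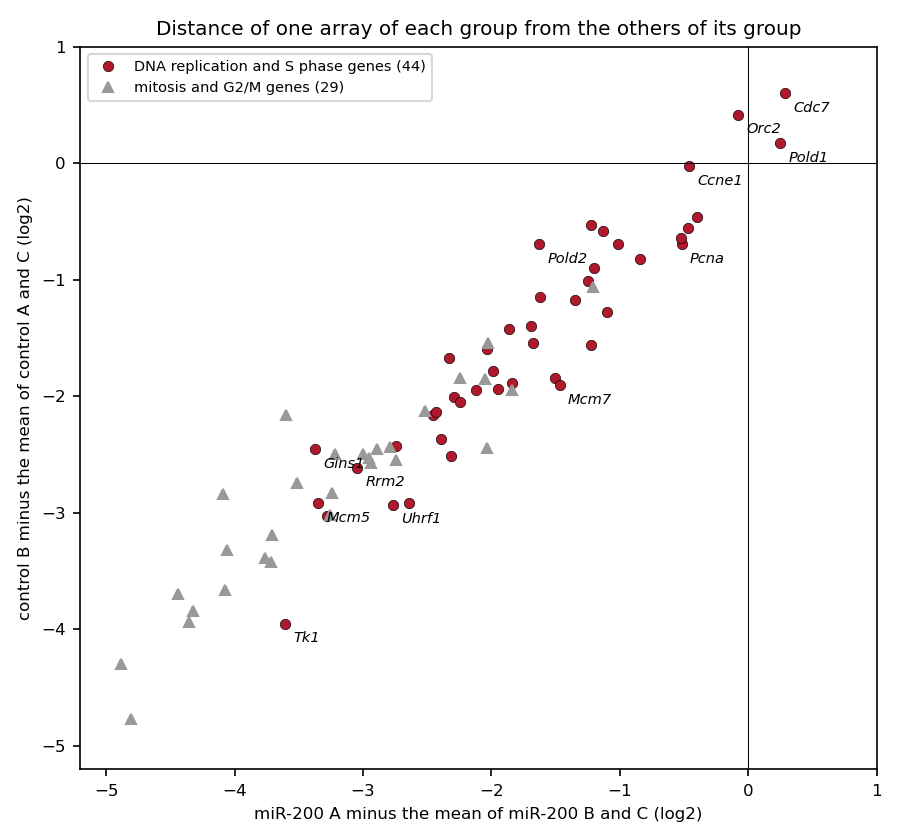
Gap of miR-200 A from the mean of miR-200 B and C (horizontal axis, log2) against the gap of control B from the mean of control A and C (vertical axis, log2), for 44 replication genes (red circles) and 29 genes of mitosis and G2/M (grey triangles). Points run along a diagonal, with Tk1 lowest among the replication genes and Cdc7, Pold1 and Orc2 near or above 0.

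Of the genes with gaps near or above 0, Orc2 was read by 3 probe sets that gave similar values, with changes of 0.41, 0.35 and 0.35 and no gap under -0.62. The probe sets of Cdc7 and of Pold1 disagreed. Cdc7, the kinase that fires origins, had gaps of 0.29 and 0.61 in its brightest probe set, but -1.79 and -2.01 in a dimmer one with a mean of 7.33. Pold1, the catalytic subunit of polymerase delta, had gaps of 0.25 and 0.18, against -2.01 and -1.74 in a dimmer probe set with a mean of 7.69. Which probe set follows the message was not tested. In all, 98 probe sets read the 44 genes, and 35 genes had more than 1. Changes had a single sign over the probe sets of 27 of these genes, leaving aside changes of 0, and both signs in 8, and 0 of the 98 passed the threshold.

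Promoters of the replication genes were searched for E2F words because the members moved together across the cultures. Windows of 250 bases before to 50 after the start, from RefSeq for GRCm38.p6, were at hand for 38 of the 45 genes, and not for Mcm4, Gins1, Gins2, Rfc2, Prim2, Pole and Ccne2. The words were TTTGGCGC, TTTCGCGC, TTTCCCGC and TTTGCCGC, on either strand, and overlapping matches were counted. A match lay in 13 of 46 member windows (28.3%), in 744 of 32851 windows of all genes (2.26%) and in 1 of 27 windows of the mitosis genes (3.70%). The word CCAAT lay in 56.5% of member windows, 37.4% of all windows and 85.2% of those of the mitosis genes. The 13 genes with an E2F word had median gaps of -2.24 on miR-200 A and -2.00 on control B, against -1.66 and -1.20 for the 24 measured genes with a window and no match. The word CCAAT split the genes in the same direction: -1.99 and -1.79 for 22 with it, -1.51 and -1.40 for 15 without. Neither split was tested. A match of either word is a run of letters and not evidence of binding. The 4 promoters shown have a match wholly within the 180 bases before the start, and the widest gaps on miR-200 A among such genes. Matching letters are in capitals. They are the 180 bases before the start of Mcm5 at chr8:75109329-75109508 (plus strand), Cdc6 at chr11:98907971-98908150 (plus), Mcm6 at chr1:128359706-128359885 (minus) and Pola1, the catalytic subunit of polymerase alpha, at chrX:93632156-93632335 (minus). Mcm5 holds 2 overlapping matches on opposite strands, and Mcm6 holds 3, of which 2 overlap.
Mcm5: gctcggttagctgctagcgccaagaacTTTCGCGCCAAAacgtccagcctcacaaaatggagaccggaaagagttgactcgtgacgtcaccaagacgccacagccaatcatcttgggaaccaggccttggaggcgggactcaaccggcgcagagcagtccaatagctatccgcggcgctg
Cdc6: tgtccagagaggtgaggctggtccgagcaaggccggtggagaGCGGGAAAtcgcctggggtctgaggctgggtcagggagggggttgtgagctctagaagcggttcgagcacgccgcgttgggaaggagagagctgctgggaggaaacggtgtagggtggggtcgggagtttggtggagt
Mcm6: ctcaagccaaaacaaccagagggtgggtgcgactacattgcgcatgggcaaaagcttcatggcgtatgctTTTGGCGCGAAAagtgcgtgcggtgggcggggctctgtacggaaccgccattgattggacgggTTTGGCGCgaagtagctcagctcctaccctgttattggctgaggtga
Pola1: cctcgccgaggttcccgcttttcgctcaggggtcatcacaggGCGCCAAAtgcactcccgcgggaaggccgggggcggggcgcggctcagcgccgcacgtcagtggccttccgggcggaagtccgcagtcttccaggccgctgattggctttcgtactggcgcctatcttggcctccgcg

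Many other genes of the pathway were low on the same arrays. Of 41 further replication factors measured, 0 passed the threshold in limma, and 2 were higher and 2 lower at an unadjusted p under 0.05, where 14.8% of all genes were under it. Both gaps were under -1 for 20 of the 41, beside 2.67% of all genes. Hells, a chromatin remodeller of dividing cells, had the highest change of that list, 0.73 ± 0.80, and Orc5, a subunit of the origin recognition complex, the lowest, -1.29 ± 0.42 (adjusted p = 0.269). Orc5 read 8.11, 9.22 and 9.28 on the miR-200 arrays, against 10.53, 9.60 and 10.35 on the control arrays, so that its groups did not overlap while its neighbour in the complex, Orc6, had a change above 0. All 29 genes of mitosis and G2/M measured had both gaps under -1, with medians of -3.24 on miR-200 A and -2.57 on control B. Their list median was 7.35, 10.85 and 11.01 on the miR-200 arrays, against 10.47, 7.66 and 10.58 on the control arrays. Of these 29, 0 passed the threshold and 0 had an unadjusted p under 0.05, beside 0.945% and 14.8% of all genes. The change was 0.62 ± 0.47 for Prc1, which bundles spindle microtubules, and -0.31 ± 0.73 for Cdc25b, a phosphatase that activates Cdk1.

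Upstream of the replication genes, Cdk6, a cyclin D kinase that phosphorylates the retinoblastoma protein, was lower in miR-200 cells. It read 11.70, 11.63 and 11.50 on the miR-200 arrays, against 12.55, 12.58 and 12.59 on the control arrays. The groups did not overlap, both low arrays lay with their own group, and the change was -0.97 ± 0.12 (adjusted p = 0.0451). A second probe set gave -1.01 (adjusted p = 0.0419) and another -0.48 (adjusted p = 0.216). The call was at the edge of the threshold. Leaving out any single array, miR-200 A, B or C or control A, B or C, gave changes of -1.01 to -0.91 with adjusted p of 0.0657 to 0.191, and leaving out both low arrays gave -1.01 with an adjusted p of 0.0911. Cdk6 was the sole gene called among 24 of the switch into S phase, beside 0.945% of all genes called and 0.671% called lower. The 24 include the D cyclins, the retinoblastoma family and the E2F factors.

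Among 11 inhibitors of S phase entry measured, 0 passed the threshold in limma and 1 was lower at an unadjusted p under 0.05. Over all genes 0.945% passed the threshold and 14.8% had an unadjusted p under 0.05 in either direction. Btg2, an antiproliferative gene induced by p53, had the lowest change, -1.42 ± 0.45 (adjusted p = 0.264), and its relative Btg1 the highest, 0.26 ± 0.22. Btg2 read 8.56, 7.22 and 6.94 on the miR-200 arrays, against 8.90, 9.28 and 8.80 on the control arrays, with no overlap. Cdkn1a, the Cdk inhibitor p21, was chosen after its values were seen. It read 10.96, 8.56 and 8.68 on the miR-200 arrays, against 9.39, 11.07 and 9.64 on the control arrays. Cdkn1a was thus high on miR-200 A and on control B, the arrays on which the replication genes were low. Btg1 (gaps of 0.57 and 0.34), Btg2 (1.47 and 0.43) and Cdkn1c (0.56 and 0.78) were also highest of their groups on both arrays. Cdkn1c too was named after its values were seen. The list did not share this as a whole: 4 of the 11 had the lowest value of their group on both arrays, beside 22.9% of all genes. Median gaps of the 11 were 0.020 on miR-200 A and -0.55 on control B. A link between Cdkn1a and the replication genes was not tested. The change of Cdkn1a was -0.63 ± 0.81 with all arrays and -0.90 ± 0.14 without both (adjusted p = 0.126).

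Markers of other cells and of RNA quality were read on the same arrays. Of the leukocyte markers 4 of 7 were above the gauge on every array, and their summed linear signal was 2090, 1592 and 1540 on the miR-200 arrays, against 1289, 1637 and 1494 on the control arrays. Cd68, a lysosomal protein of macrophages, read 8.98, 5.73 and 5.97 against 6.81, 8.87 and 6.46 in control cells, and so was high on the 2 arrays where replication genes were low. Ptprc, carried by all leukocytes, was near the gauge, at 5.44, 5.75 and 5.30 against 5.29, 5.91 and 5.59 in control cells, highest of its group on control B but not on miR-200 A. The macrophage markers Csf1r and Adgre1 read 9.92, 9.89 and 9.94 against 9.34, 9.40 and 9.68, and 9.04, 8.92 and 8.55 against 8.85, 8.61 and 8.93. Lyz2 was at 0 on miR-200 A and control A. Of the fibroblast markers 3 of 8 were above the gauge on every array, and their summed signal was 454, 413 and 412 against 415, 391 and 426 in control cells. Pdgfrb was at 0 on control C. Of the endothelial markers 2 of 5 were above the gauge, with sums of 224, 226 and 266 against 191, 218 and 227, and Tie1 was at 0 on control B. The actin control probes gave a 3′ minus 5′ difference of 0.206, 0.139 and 0.0975 on the miR-200 arrays, against 0.129, 0.173 and 0.0906 on the control arrays, the highest of each group being miR-200 A and control B. The same 2 arrays were highest of their groups for the transferrin receptor probes, at 1.28, 1.11 and 1.24 against 1.19, 1.23 and 1.09. For the Gapdh probes miR-200 A was highest of its group and control B was not, at -0.255, -0.298 and -0.291 against -0.305, -0.268 and -0.255. The part of RNA quality or other cells in the low replication signal was not tested.

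**Figure D4:**
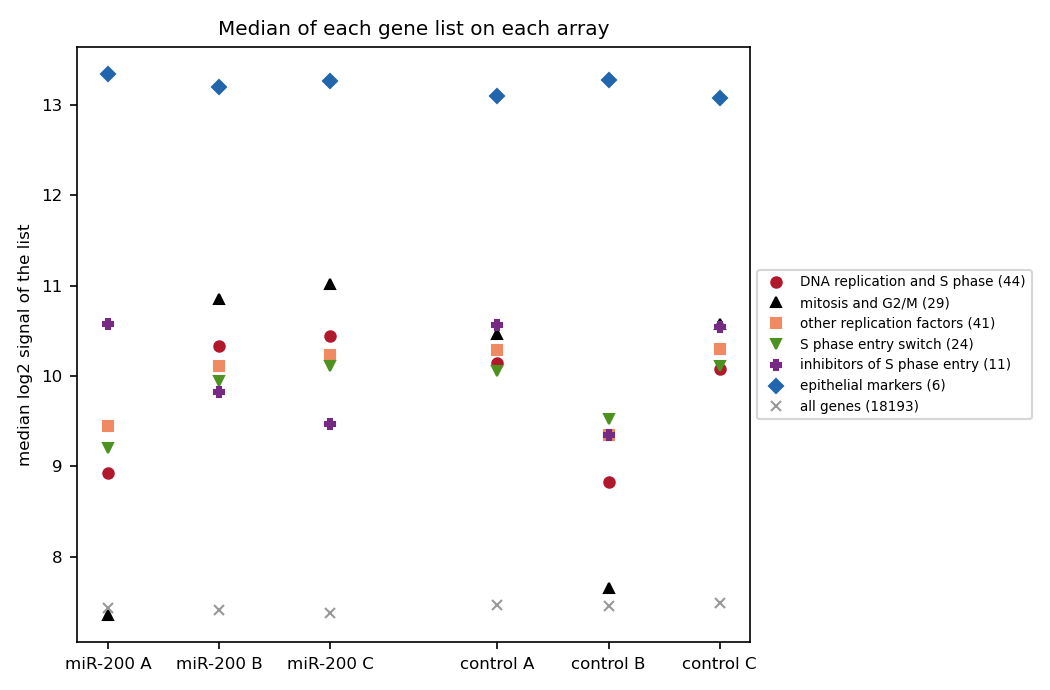
Median log2 signal of each gene list (vertical axis) on each array (horizontal axis, miR-200 arrays left, control arrays right), with the number of genes in brackets. The replication genes and, more steeply, the mitosis genes dip on miR-200 A and on control B. The median of the epithelial markers and that of all genes vary little, though Cldn4 among those markers differs between groups.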

How the data were processed

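RNA of 6 cultures, 3 of each group, was hybridised as biotin-labelled cRNA to Affymetrix mouse arrays, per the labels. The values deposited by the authors are log2 signals for 45101 probe sets, with 1578 to 1718 per array at a floor of 0. Summarisation and normalization are not given in the sources used here. Per the labels the array was the 430A 2.0 design, which holds fewer probe sets than this table. Deposited medians spanned 0.0924 and interquartile ranges 0.174, above the limit of 0.1, so arrays were quantile normalized. After 64 control probe sets were left out, 45037 were fitted with limma 3.58.1 in R 4.3.3 (lmFit and eBayes, two-sided, Benjamini-Hochberg over all 45037, threshold 0.05, no covariate). Errors after ± are standard errors of that fit and intervals are 95%. Precision is limited by 3 arrays per group.

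Of the probe sets, 34945 had 1 symbol, 932 several and 9160 none; 34741 were matched by gene number to RefSeq GRCm38.p6, which gave 18193 genes. The members and lists were chosen with earlier results of these data known, so no list was tested. Members named with values are Mcm2 to Mcm7, Pcna, Rrm2, Ccne1, Ccne2, E2f1 and Cdk2, the brightest of each role, and the 4 largest and 4 smallest changes in each fit, 24 in all. Of the other lists, genes past the threshold were named, or else the largest and smallest change. Alternatives were the deposited values, median centring, a filter on dim probe sets, averaging the probe sets of each gene, a robust variance trend, array weights, a replicate block and leaving out arrays.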

Additional observations from a re-analysis of the deposited data

How the results depend on the processing

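The count of replication genes past the threshold was 0 in all 14 alternatives. The count over all probe sets was 335, and became 923 without the dimmest 40%, 951 with a robust variance trend, 1291 with array weights, 103 without miR-200 A and control B, and 32 to 328 when single arrays were left out. With the culture letter as a replicate block it was 0, with 4280 at an unadjusted p under 0.05. Between cultures of the same letter, deviations from the group means correlated at -0.58 for A, -0.67 for B and 0.43 for C. The correlation was 0.71 between miR-200 A and control B, a pair picked after its values were seen. Deviations within a group sum to 0, so these correlations depend on one another. Whether the letters pair the cultures was not tested. The labels do not say what a letter stands for, so the block speaks to the letters as given and not to any other pairing. The median change of the members, 0.15, was 0.056 after median centring and 0.26 with array weights. Several changes turned sign. After median centring Pcna was -0.0303, Ccne2 -0.022 and Cdt1 -0.022. With the mean of probe sets Ccne1 was 0.022 and Cdt1 -0.0296. With array weights Ccne1 was 0.084, Gins2 0.023, Rpa1 0.017, Pold2 0.11 and Gins1 0.25. Without both low arrays Ccne1 was 0.10, Cdt1 -0.016, Rpa1 0.015, Pold2 0.17 and Gins1 0.18. Leaving out single arrays turned the sign of these: Mcm2 (-0.14 to 1.06), Mcm3 (-0.48 to 1.05), Mcm4 (-0.25 to 0.68), Mcm5 (-0.77 to 1.32), Mcm6 (-0.31 to 1.12), Mcm7 (-0.18 to 0.94), Pcna (-0.16 to 0.24), Rrm1 (-0.10 to 1.19), Rrm2 (-1.14 to 0.75), Ccne1 (-0.18 to 0.11), Ccne2 (-0.41 to 0.66), Cdt1 (-0.52 to 0.60), Gins1 (-0.95 to 0.99), Gins2 (-0.73 to 0.51), Prim1 (-0.15 to 1.19), Rpa1 (-0.40 to 0.35), Uhrf1 (-0.84 to 1.06), Rfc4 (-0.73 to 0.30), Pold2 (-0.43 to 0.40) and Cdc25b (-0.82 to 0.37). E2f1, Cdk2, Mcm10, Orc6 and Fen1 stayed above 0 in every alternative run, but their size moved: over all alternatives E2f1 spanned 0.050 to 0.44, Cdk2 0.27 to 1.06, Mcm10 0.011 to 1.81, Orc6 0.55 to 1.12 and Fen1 0.30 to 0.87. The call of Cdk6 was lost with the replicate block (adjusted p = 0.336), and in the fits with fewer arrays given above; those of Cldn4 and Sftpb were lost with the replicate block (both 0.115). The cause of these shifts was not tested. Signals near the gauge of 5.28, such as that of Tyms, limit what can be read of the lowest values.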
